A study of Mus musculus with 9 samples.

Results

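This account follows complement components, regulators and receptors in mouse retina: C2, C3, C4b, Cfb, Cfi, Serping1, Cd55, Cd59a and C3ar1, with the chains of the initiator C1q left out. The genes, and the lists set beside them later, were chosen by name with earlier results of these data known. Every probe set that the platform annotation assigns to 1 of the 9 genes alone was read. Of the 9 genes, 7 had such a probe set, 14 probe sets in all, out of 18193 genes with 34945 single-symbol probe sets on the array. C4b shares its probe set with C4a, and C3 was not analysed here. The main probe set of a gene was the one with the highest mean over the 9 arrays. Cfi, Serping1 and Cd59a passed an intensity filter of 5.91 (log2 signal, the 40th percentile of all non-control probe sets) and were tested, whereas C2, Cfb, Cd55 and C3ar1 lay below it. In each of the 3 tested genes the mean of every group was above the filter.

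All animals were female BALB/c mice, which are albino (the labels spell the strain Babl/c), at an age of 10 weeks. The 3 groups were mice kept under white LED lamps of 7378K (colour temperature, a cold white), mice under white LED lamps of 2954K (a warm white), and controls kept in the dark, with 3 arrays each. Exposure lasted 14 days at 1000 lx in both LED groups, switched on for 12 h and off for 12 h a day. For the controls the labels list no illuminance, though they list those hours. RNA of 3 retinas, all from right eyes, was pooled for each Affymetrix array, which gives 3 pools per group. A pool gives the mean over its animals, and the 2 LED comparisons share the same controls.

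Complement is a cascade of plasma and cell-surface proteins that tags debris and pathogens, and it runs through classical, lectin and alternative routes that meet at the cleavage of C3. C2 and factor B supply the protease of the enzyme complexes that cleave C3, factor I and the C1 inhibitor hold the cascade back in fluid, and CD55 and CD59 protect the cell surface. In the retina, complement transcripts are known from microglia, Müller glia, neurons and the pigment epithelium, and complement is known for its part in age-related macular degeneration and in the removal of synapses and damaged photoreceptors.

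In RefSeq, on mouse build GRCm38.p6, Cfb (chr17:34856374-34862514) and C2 (chr17:34862602-34882100) are neighbours with 87 bases between them, and C4b (chr17:34728139-34743902) and C3 (chr17:57203967-57228136) are on the same chromosome. Cfi is on chromosome 3 (chr3:129836727-129875332). Serping1 (chr2:84765360-84775444) and Cd59a (chr2:104095753-104115410) share chromosome 2, Cd55 is on chromosome 1 (chr1:130429798-130465009) and C3ar1 on chromosome 6 (chr6:122847140-122856157). RefSeq promoter windows of 300 bases, from 250 before the start taken for each window to 50 after it, were at hand for Cd55, Cd59a and C3ar1. They were searched on both strands for 6 motif forms of the factors that drive acute-phase and interferon-induced genes: the gamma-activated site TTCNNNGAA and its form with 4 free bases between TTC and GAA, the interferon-stimulated response element (GAAA, 2 free bases, GAAA), NF-kB in a strict form (GGGA, 2 free bases, TTCC) and a loose form (GGG, 3 free bases, TTCC) that includes the strict one, and C/EBP as TTNNGCAA. A match was found in 2 of the 3 windows, and both are printed, 5′ to 3′ on the strand of the gene, because they belong to the surface regulator and the receptor whose probe sets disagreed with each other. Capitals mark the matched motif.
Cd59a (chr2:104095551-104095850, plus strand): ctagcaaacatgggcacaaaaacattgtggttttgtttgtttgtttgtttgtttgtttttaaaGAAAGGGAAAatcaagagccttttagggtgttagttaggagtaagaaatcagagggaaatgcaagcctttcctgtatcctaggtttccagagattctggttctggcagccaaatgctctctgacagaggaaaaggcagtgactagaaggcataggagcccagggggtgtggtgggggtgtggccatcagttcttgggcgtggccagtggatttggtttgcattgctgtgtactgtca
C3ar1 (chr6:122856108-122856407, minus strand): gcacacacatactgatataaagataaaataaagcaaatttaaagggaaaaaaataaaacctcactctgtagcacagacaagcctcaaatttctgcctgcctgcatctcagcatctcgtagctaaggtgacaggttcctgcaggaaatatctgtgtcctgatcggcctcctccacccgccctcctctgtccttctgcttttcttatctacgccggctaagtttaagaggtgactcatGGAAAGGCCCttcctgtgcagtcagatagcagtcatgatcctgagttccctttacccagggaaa
In Cd59a the match was to the interferon-stimulated response element, starting 187 bases before the start taken for its window, and 3.44% of 32851 promoter windows hold this form. In C3ar1 it was to the loose NF-kB form on the opposite strand, starting 14 bases before the gene start, a form held by 5.56% of the windows. The Cd55 window matched none of the 6 forms. For Cd55 and Cd59a the start taken for the window lies inside the gene span given above, while for C3ar1 it is the end of that span. These matches are letters in a window and do not show that a factor binds there.

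The first question was which soluble regulators differed under LED light. Cfi, a serine protease made as a plasma protein that cuts C3b and C4b and so limits the cascade, was higher under both lights. Its log2 signal was 8.54, 8.18 and 8.36 in the 7378K arrays 1 to 3, and 8.53, 8.09 and 8.61 in the 2954K arrays, against 7.12, 6.65 and 6.68 in the controls. All 6 LED arrays lay above all 3 controls, and the lowest of them, 2954K 2, was 8.09. In limma, with Benjamini-Hochberg adjustment over 12765 genes, Cfi rose 2.91-fold under 7378K light (log2 difference 1.54 ± 0.22, SE; 95% confidence interval 1.07 to 2.01; adjusted p = 0.00209). Under 2954K light it rose 3.01-fold (1.59 ± 0.22; 1.12 to 2.06; adjusted p = 0.00226). Pools of whole retina were measured. A change in the number of cells of a type and a change in RNA per cell therefore cannot be told apart, here or in any later comparison.

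Serping1 encodes the C1 inhibitor, a serpin that blocks the proteases C1r and C1s at the start of the classical route. Its log2 signal was 9.95, 9.77 and 9.58 under 7378K light and 9.18, 9.34 and 10.15 under 2954K light, against 7.34, 7.11 and 9.22 in controls 1 to 3. Control 3 stood about as high as the 2 lower 2954K arrays, so the 2954K group overlapped the controls, while the 7378K group did not. Serping1 averaged 9.77 ± 0.19 under 7378K light, 9.56 ± 0.52 under 2954K light and 7.89 ± 1.16 in controls (SD, n = 3 each). It rose 3.67-fold under 7378K light (log2 difference 1.88, 95% confidence interval 0.91 to 2.85; adjusted p = 0.0401 in limma). Under 2954K light the difference of 1.67 (0.70 to 2.64) did not pass the test (adjusted p = 0.119), although its interval lies above 0.

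The Serping1 result rested on single arrays in both directions. Without control 3 the log2 difference became 2.54 under 7378K light (adjusted p = 0.000193 in limma) and 2.33 under 2954K light (adjusted p = 0.000621), so that the gene was then called in both. The 7378K call ended without control 1 (adjusted p = 0.138), without control 2 (0.169), and without 7378K 1, 2 or 3 (0.164, 0.124 and 0.108). Cfi was called in all 9 fits that left out 1 array in both comparisons, with a highest adjusted p of 0.0187 under 7378K light and 0.021 under 2954K light. With array 3 of every group left out together, its adjusted p was 0.053 at a difference of 1.48 under 7378K light and 0.086 at 1.43 under 2954K light.

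**Figure D1:**
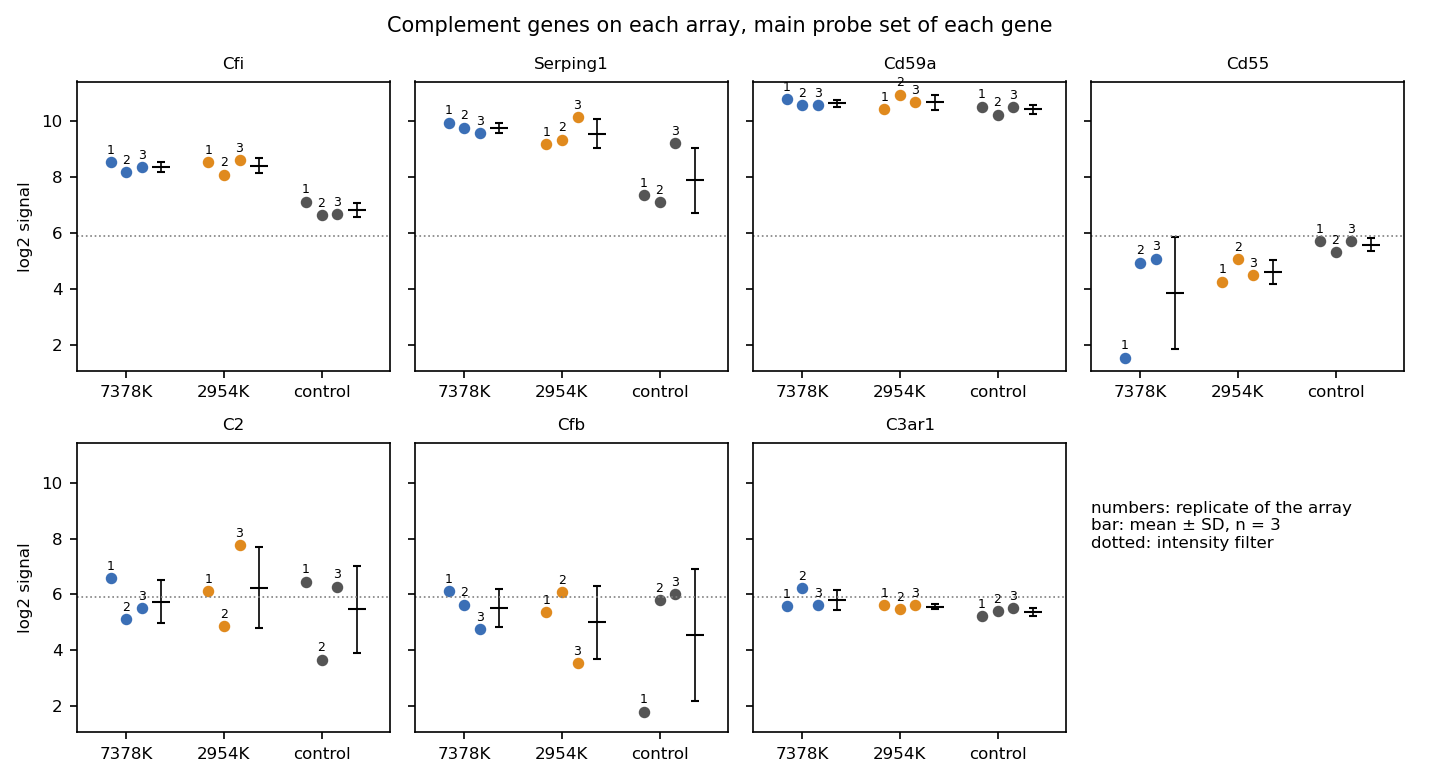
Log2 signal (vertical axis) of the main probe set of each complement gene on each array, grouped as 7378K, 2954K and control; small numbers are array replicates, bars are mean ± SD (n = 3), and the dotted line is the intensity filter of 5.91. All 6 LED arrays of Cfi lie above its controls, control 3 of Serping1 lies at 9.22 among the LED arrays, and Cd55, C2, Cfb and C3ar1 have means below the filter.

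Among the 3 tested genes 2 rose under 7378K light, Cfi and Serping1, where 2.36% of 12765 genes rose, and 0 fell, where 1.16% of genes fell. Under 2954K light 1 rose, Cfi, where 1.03% of genes rose, and 0 fell, where 0.188% of genes fell. The median log2 difference of the 3 was 1.54 under 7378K light and 1.59 under 2954K light, against 0.04 and 0.01 over all genes tested. With 3 tested genes these medians are the values of single genes. As the members were chosen with earlier results of these data known, the counts are no test of complement as a group.

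The membrane regulators gave no such difference. Cd59a encodes a lipid-anchored protein that stops the membrane attack complex from forming. Its main probe set measured 10.79, 10.58 and 10.57 under 7378K light and 10.42, 10.95 and 10.68 under 2954K light, against 10.53, 10.24 and 10.51 in controls. The 7378K arrays stood slightly above all controls, and the 2954K arrays overlapped them, with 2954K 1 below controls 1 and 3. The log2 difference was 0.22 (95% confidence interval -0.09 to 0.53; adjusted p = 0.382) under 7378K light and 0.26 (-0.05 to 0.57; adjusted p = 0.458) under 2954K light in limma.

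The second probe set of Cd59a, the dimmer by mean signal, ran the other way. It measured 8.37, 8.37 and 8.52 under 7378K light and 8.11, 9.99 and 9.27 under 2954K light, against 9.31, 9.49 and 9.07 in controls. All 7378K arrays were below all controls, and the 2954K arrays lay on both sides. In the fit over 22657 single-symbol probe sets past the filter its log2 difference was -0.87 under 7378K light (95% confidence interval -1.67 to -0.07; adjusted p = 0.18 in limma, where 1.12% of probe sets fell) and -0.16 under 2954K light (adjusted p = 0.875). Neither passed the test, and the 2 probe sets do not settle a direction for Cd59a under 7378K light.

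Cd55, decay-accelerating factor, a lipid-anchored protein that takes apart the enzyme complexes that cleave C3, was dim. Its main probe set gave log2 signals of 1.53, 4.93 and 5.08 under 7378K light and 4.25, 5.07 and 4.48 under 2954K light, against 5.72, 5.30 and 5.70 in controls. Every LED array was below every control, but all 9 values lie under the filter, so no fold is given. Tested without the filter, over 18193 genes, the log2 difference was -1.72 under 7378K light (adjusted p = 0.343 in limma) and -0.97 under 2954K light (adjusted p = 0.741). Without 7378K 1 the 7378K difference was -0.57. In that fit 0 of the 4 genes below the filter passed in either LED comparison, where 1.42% of genes rose and 0.632% fell under 7378K light, and 0.671% rose and 0.104% fell under 2954K light. The other 2 probe sets of Cd55 had means of 3.48 and 2.49 and overlapped between all groups.

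Of the components, C2 and Cfb encode homologous serine proteases of the classical and alternative routes. The main probe set of C2, with a mean of 5.82 just under the filter, measured 6.59, 5.12 and 5.51 under 7378K light and 6.12, 4.85 and 7.75 under 2954K light, against 6.46, 3.66 and 6.28 in controls. The arrays of each group spread more widely than the groups differed, and in the fit without the filter the log2 difference was 0.27 under 7378K light (adjusted p = 0.912 in limma) and 0.78 under 2954K light (adjusted p = 0.791). A pair of further probe sets of C2 carries the suffix (_x_at) of probe sets that can bind other transcripts. On the main probe set and on both of these, 2954K 3 gave the highest signal of the 9 arrays, at 7.75, 7.93 and 7.40.

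Cfb, factor B, had a single probe set. It measured 6.12, 5.63 and 4.76 under 7378K light and 5.37, 6.08 and 3.54 under 2954K light, against 1.81, 5.79 and 6.01 in controls. Control 1 was the lowest array, and the other 2 controls stood among the higher LED arrays. In the fit without the filter the log2 difference was 0.97 under 7378K light (95% confidence interval -1.33 to 3.27; adjusted p = 0.699 in limma) and 0.46 under 2954K light (-1.84 to 2.77; adjusted p = 0.912). Intervals of this width do not show whether Cfb changed.

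C3ar1 encodes the receptor for the peptide C3a, released when C3 is cut, and in the nervous system it is known as a gene of microglia. Its 3 probe sets, all with means under the filter, gave different pictures. The main one measured 5.58, 6.23 and 5.62 under 7378K light and 5.62, 5.47 and 5.60 under 2954K light, against 5.23, 5.40 and 5.50 in controls. The 7378K arrays were above the controls by little, and the log2 difference was 0.43 under 7378K light (adjusted p = 0.692 in limma without the filter) and 0.19 under 2954K light (adjusted p = 0.919). The third by mean signal measured 6.54, 6.60 and 6.48 under 7378K light and 6.94, 6.50 and 5.88 under 2954K light, against 5.12, 0.79 and 2.01 in controls. Here every LED array was above every control.

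The control mean of the third C3ar1 probe set, 2.64, lies below the filter value, so the LED means were set against that value. They stood 1.55-fold above it under 7378K light and 1.45-fold above it under 2954K light, folds given without an error. Array 2954K 3, at 5.88, lay under it. In a fit over all 45037 non-control probe sets without the filter the adjusted p of this probe set was 0.0699 under 7378K light and 0.185 under 2954K light in limma, so that neither passed. Leaving out 1 array at a time gave adjusted p from 0.00996 to 0.236 under 7378K light, with 3 of 9 fits under the threshold, and from 0.0162 to 0.492 under 2954K light, with 1 of 9. The second probe set overlapped between the groups, with means of 4.87 ± 0.93 under 7378K light, 5.80 ± 0.96 under 2954K light and 4.98 ± 1.51 in controls (SD, n = 3 each).

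**Figure D2:**
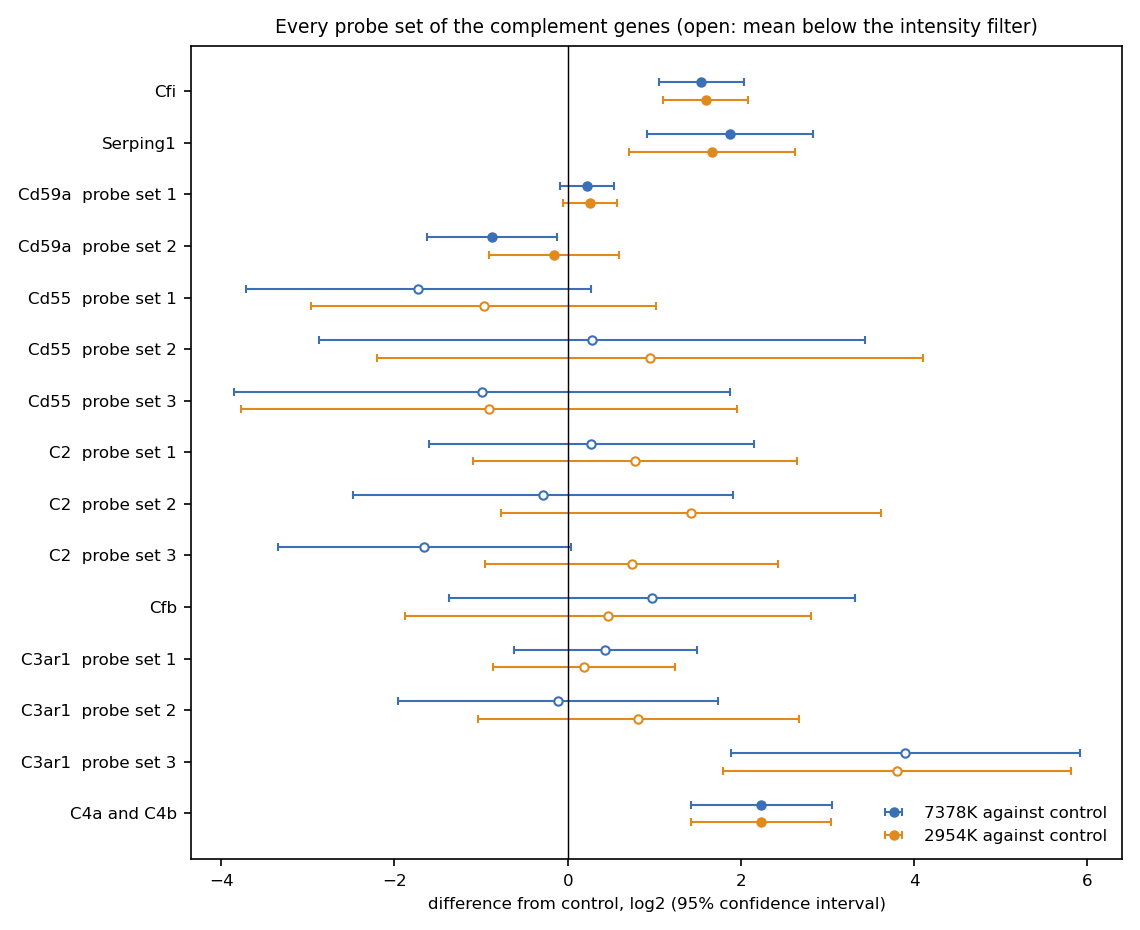
Log2 difference from control with its 95% confidence interval (horizontal axis) for each of the 14 probe sets and for the probe set shared by C4a and C4b, 7378K above 2954K in each row, from the fit over all non-control probe sets; open points have a mean below the intensity filter. Probe sets of a gene are numbered by mean signal. The intervals of Cfi, Serping1, probe set 3 of C3ar1 and the C4a and C4b probe set lie above 0 in both comparisons. That of probe set 2 of Cd59a lies below 0 under 7378K light. The intervals are not adjusted for the number of probe sets. In this fit Serping1, probe set 3 of C3ar1 and probe set 2 of Cd59a did not pass in either comparison.

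C4b encodes the C4 that forms the classical enzyme complex together with C2, and it could not be read apart from its near copy C4a, which in the mouse encodes the sex-limited protein. Its probe set is annotated to both genes, so its signal belongs to either or both, and it is not counted among the genes above. It measured 10.52, 10.49 and 10.32 under 7378K light and 10.07, 10.12 and 11.12 under 2954K light, against 8.14, 7.34 and 9.14 in controls. All 6 LED arrays were above all controls, with control 3 the highest of the controls and 2954K 3 the highest of all. In the fit over 45037 probe sets, in which 0.604% of probe sets rose under 7378K light and 0.271% under 2954K light, it rose 4.71-fold under 7378K light (log2 difference 2.24, 95% confidence interval 1.43 to 3.05; adjusted p = 0.0155 in limma) and 4.69-fold under 2954K light (2.23, 1.42 to 3.04; adjusted p = 0.0252). Leaving out 1 array at a time gave adjusted p from 0.00159 to 0.095 under 7378K light, with 5 of 9 fits under the threshold, and from 0.00258 to 0.157 under 2954K light, with 3 of 9.

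**Figure D3:**
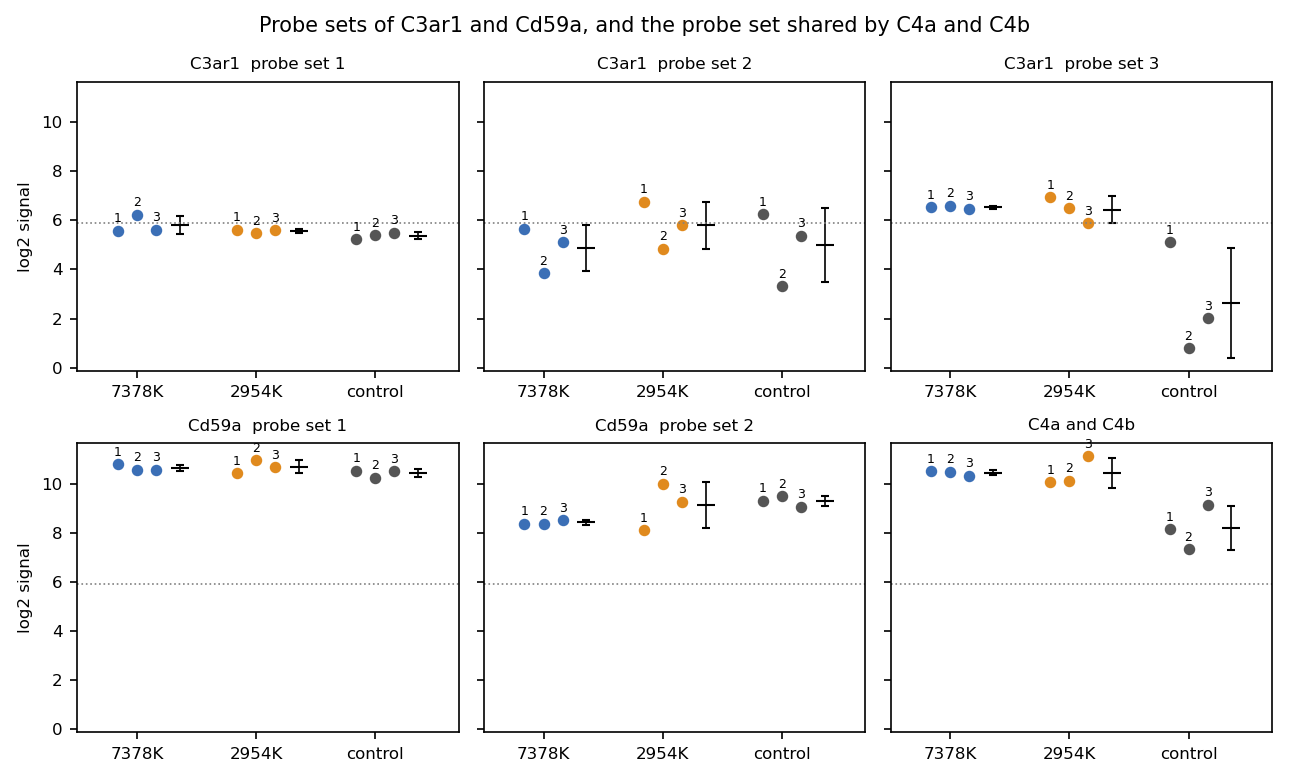
Log2 signal (vertical axis) on each array of the 3 probe sets of C3ar1, the 2 of Cd59a and the 1 shared by C4a and C4b, grouped as 7378K, 2954K and control, with bars for mean ± SD (n = 3) and the intensity filter dotted. Of the C3ar1 probe sets only the third separates all LED arrays from all controls, and the Cd59a probe sets run in opposite directions under 7378K light.

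Cold and warm light were then set against each other. None of the 3 tested genes differed, and 0 of 12765 genes (0%) passed in limma, with 519 at an unadjusted p under 0.05. For Cfi the log2 difference of 7378K from 2954K was -0.05 (95% confidence interval -0.52 to 0.42; adjusted p = 0.99 in limma), for Serping1 0.21 (-0.76 to 1.18; adjusted p = 0.978) and for Cd59a -0.04 (-0.35 to 0.27; adjusted p = 0.988). A difference of more than 0.52 in Cfi in either direction lies outside its interval, while that of Serping1 leaves room for a difference of over 1. The second probe set of Cd59a had -0.71 (-1.50 to 0.09; adjusted p = 0.937 in limma over 22657 probe sets), so that the main probe set alone sets no limit for this gene. Of the probe sets below the filter, the third of C2 measured 4.58, 4.22 and 2.81 under 7378K light, against 6.05, 5.33 and 7.40 under 2954K light (log2 difference -2.39, unadjusted p = 0.00949, adjusted p = 0.931 in limma). These 2 groups did not overlap on it, but it did not pass the test, and the main probe set of C2 overlapped.

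Other complement genes, from a list of 51 in 5 groups, were mostly below the filter. Of the 40 with a probe set of their own, 13 were tested, of which 1 rose and 0 fell under 7378K light, where 2.36% of all genes rose and 1.16% fell. Under 2954K light 0 rose and 0 fell, where 1.03% and 0.188% of all genes did. There 2 of the 13 had an unadjusted p under 0.05 in limma, as did 1667 of all 12765 genes, a similar share. Their median log2 difference was 0.26 under 7378K light and 0.20 under 2954K light, against 0.04 and 0.01 over all genes. The gene that rose was Clu, clusterin, a secreted chaperone that also binds the membrane attack complex. It measured 14.61, 14.56 and 14.41 under 7378K light and 14.58, 14.16 and 14.60 under 2954K light, against 13.33, 13.31 and 14.16 in controls. As for Serping1, control 3 was the high control. Clu rose 1.90-fold under 7378K light (adjusted p = 0.0288 in limma), a call that ended in 10 of the 25 other settings tried, and its difference under 2954K light was 0.85 (adjusted p = 0.0802).

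No other gene of the 13 passed in either LED comparison. Among the regulators Cr1l, the rodent surface regulator Crry, had a log2 difference of 0.21 under 7378K light (adjusted p = 0.587 in limma) and 0.51 under 2954K light (adjusted p = 0.335), and vitronectin, Vtn, had -0.19 (0.205) and -0.14 (0.487). Properdin, Cfp, which stabilises the alternative enzyme complex and was the tested gene of that route, had 0.54 under 7378K light (adjusted p = 0.109) and 0.20 under 2954K light (adjusted p = 0.667). Of 3 tested genes of the classical and lectin routes, the lectin-route protease Masp2 had 0.46 (adjusted p = 0.356) and 0.35 (0.627), and the collectin Colec12 had 0.54 (0.537) and 1.01 (0.395). Of the receptors, Cd93 and C1qbp had differences of 0.21 and 0.29 under 7378K light, with adjusted p of 0.724 and 0.345, and of -0.11 and 0.14 under 2954K light, with adjusted p of 0.911 and 0.757. All 6 genes of the terminal pathway with a probe set lay below the filter.

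Markers of other cells moved with some of these results. Of 12 measured genes of microglia and macrophages, 8 were tested. Of these, 4 rose under 7378K light, where 2.36% of all genes rose, and 3 under 2954K light, where 1.03% rose. The calls included Aif1 under both lights and Ptprc under 7378K light. The control means of Aif1 and Ptprc lay below the filter, so both genes were tested only through their LED arrays. Csf1r and Tyrobp, called under both lights, had control means above it (9.71 and 7.48). The log2 of the summed signal of the 12 measured genes was 11.69 to 11.89 under 7378K light and 11.68 to 11.93 under 2954K light. In controls it was 10.45 to 11.01. Csf1r, the brightest of them, weighs most in this sum (means of 11.0 and 11.1, against 9.7 in controls). P2ry12 averaged lower than in controls (log2 difference -0.44 under 7378K light and -0.08 under 2954K light). So did Trem2, below the filter, with means of 5.07 and 4.05 against 5.43. The list of 9 Müller glia genes holds Clu, so it was also read without it. Of the other 8, 1 rose under each light, the water channel Aqp4, and their log2 sums overlapped between the groups, at 15.70 to 15.83 under 7378K light and 15.73 to 15.80 under 2954K light, against 15.56 to 15.77 in controls. The part of these cells in the differences of Cfi, Serping1, the third C3ar1 probe set and the C4a and C4b probe set was not tested. Of 5 measured neutrophil and monocyte genes, S100a8, S100a9, Ccr2 and Mpo lay below the filter. The fifth, Lcn2, a secreted iron-carrier protein that glia also make, measured 9.06, 8.42 and 8.79 under 7378K light and 7.69, 8.05 and 9.68 under 2954K light, against 7.23, 6.84 and 7.30 in controls. All 6 LED arrays were above all controls, but the log2 difference did not pass (1.63, adjusted p = 0.0505 in limma under 7378K light, and 1.35, adjusted p = 0.176 under 2954K light). The sum of the 5 ranged from 8.85 to 9.44 under 7378K light and from 8.51 to 9.79 under 2954K light, against 7.70 to 8.21 in controls. Lcn2, the brightest of them, weighs most in this sum. S100a9 went the other way, lower on every LED array (0.88 to 3.22) than on every control (3.55 to 4.72). S100a8, Ccr2 and Mpo overlapped between the LED arrays and the controls. The part of these cells in the results was not tested. All 3 measured genes of blood lay below the filter.

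Control 3 and 2954K 3, highest of their groups for Serping1 and the C4a and C4b probe set, also carried transcripts of neighbouring tissue. The log2 sum of 8 lens genes was 12.00 in 7378K 3, 14.30 in 2954K 3 and 16.78 in control 3, and between 6.71 and 9.05 on the other 6 arrays. For 7 melanocyte genes it was 11.88, 14.28 and 13.02 in these 3 arrays and between 10.43 and 12.20 on the others. The 7 genes of fibroblasts and sclera gave 9.50 in 7378K 3, 11.63 in 2954K 3 and 11.65 in control 3, and between 8.97 and 10.16 on the others. 7378K 3 was the lowest of its group for Serping1 and the C4a and C4b probe set. There only the lens sum, of these lists, lay above the other 6 arrays. The sum of 8 pigment epithelium genes was 15.61, 14.85 and 15.60 in these 3 arrays and between 14.49 and 15.77 on the others. For that sum 2954K 3 was the lowest of its group. Cfi measured 6.68 in control 3, between the other 2 controls, and 8.61 in 2954K 3, its highest value of the 9 arrays. The part of these tissues in the results was not tested. As a check of the tissue, Gnat1, the rod transducin gene, measured 14.4 to 14.98 on the 9 arrays, and Rpe65, a gene of the pigment epithelium, 9.73 to 11.83. Of 7 tested rod genes 2 fell under 7378K light, where 1.16% of all genes fell, and 0 under 2954K light, where 0.188% fell. The 2 were the channel subunit Cnga1 (log2 difference -0.49, adjusted p = 0.00902 in limma) and the disc protein Rom1 (-0.41, adjusted p = 0.0317). Of the others, Nrl, Pde6a and Pde6b had -0.29, -0.27 and -0.21 under 7378K light, and Gnat1 and Sag 0.03 and 0.02. The log2 sum of the rod genes ranged from 16.87 to 17.08 under 7378K light and from 16.83 to 17.16 under 2954K light, against 17.00 to 17.30 in controls. Without control 3 and 2954K 3 together, a setting chosen after seeing the data, Cfi and Serping1 were both called in both LED comparisons. Their log2 differences were 1.48 and 2.54 under 7378K light and 1.43 and 2.04 under 2954K light. With array 3 of every group left out, Cfi was called in neither comparison (adjusted p = 0.053 and 0.086 in limma) and Serping1 in both.

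**Figure D4:**
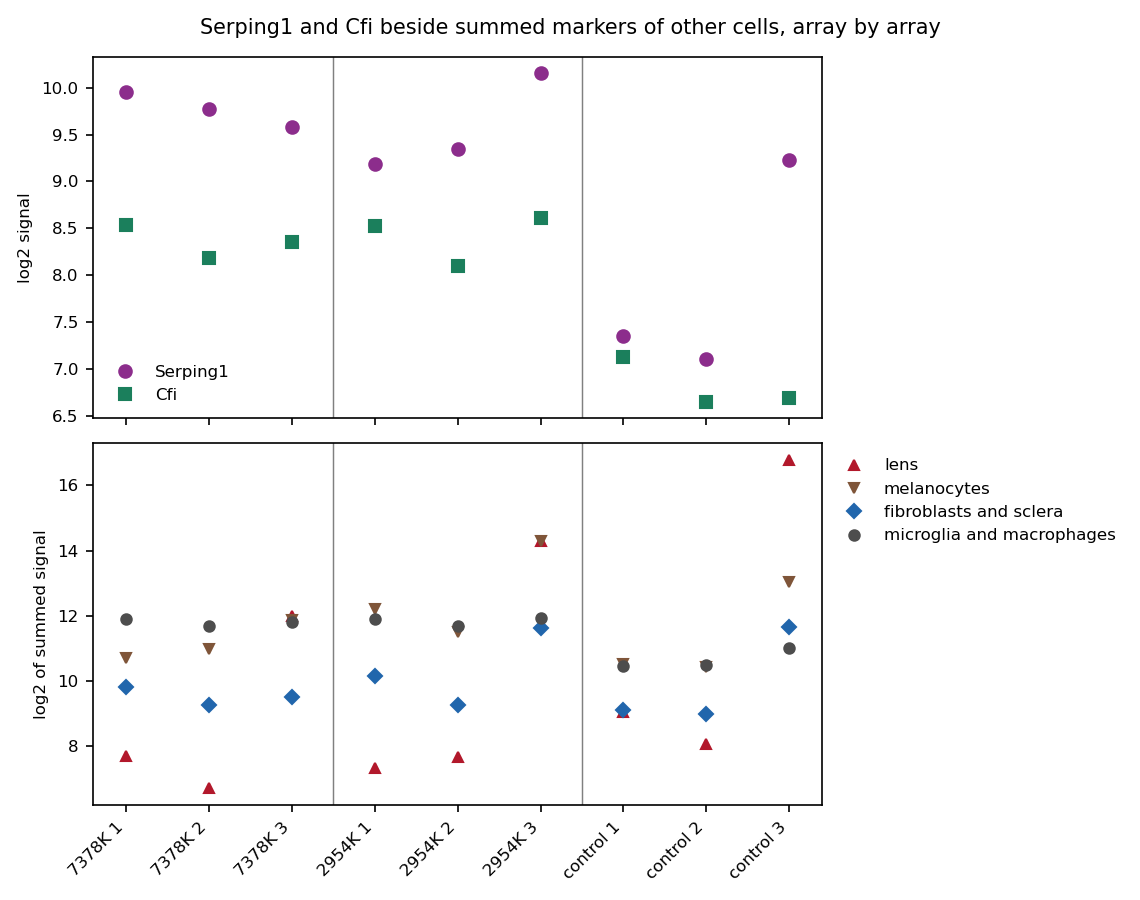
Upper panel: log2 signal of Serping1 and Cfi on each array; lower panel: log2 of the summed signal of marker genes of lens, melanocytes, fibroblasts and sclera, and microglia and macrophages on the same arrays, ordered 7378K, 2954K and control. Serping1 stands at 9.22 in control 3, where the lens sum reaches 16.78, and Cfi stays at 6.68 there.

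The 3′ minus 5′ difference of the Gapdh and beta-actin control probe sets, which grows when 5′ ends are lost, also differed between the groups. It was 1.67 ± 0.13 under 7378K light, 1.35 ± 1.31 under 2954K light and 0.32 ± 0.12 in controls (SD, n = 3 each). An exact two-sided permutation test gave p = 0.1 for 7378K against control, the smallest p that 3 against 3 arrays allow, and p = 0.3 for 2954K against control (both adjusted over 6 tests to 0.3 and 0.45). With it as a covariate Cfi stayed past the threshold, at log2 differences of 1.35 (adjusted p = 0.0494 in limma) under 7378K light and 1.44 (adjusted p = 0.0228) under 2954K light, and Serping1 did not pass under 7378K light (1.95, adjusted p = 0.243). With the same measure of the bacterial dap control transcript as the covariate, Cfi did not pass under 7378K light (1.24, adjusted p = 0.187), nor did Serping1 (1.32, adjusted p = 0.6). Under 2954K light that fit kept the Cfi call (1.46, adjusted p = 0.0111) and did not call Serping1 (1.43, adjusted p = 0.301). The dap measure, which is not of retinal RNA, was 2.68 ± 0.13 under 7378K light, 1.85 ± 0.92 under 2954K light and 1.23 ± 0.42 in controls (SD, n = 3 each). Its exact permutation p was 0.1 for 7378K against control (adjusted to 0.3). What the measures read, RNA quality among it, and 7378K light cannot be told apart by 3 arrays whose values on both measures do not overlap with those of the controls.

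Across the 9 arrays, the profile of Cfi was most like that of Pbxip1, Mt2 and Myo5b, with root mean square differences of 0.13, 0.22 and 0.22 on the log2 scale after each gene was centred on its own mean, where the median over 12762 genes was 0.78. Pbxip1 encodes a protein that binds PBX homeodomain factors, Mt2 a metallothionein and Myo5b a motor protein of vesicle transport. The profile of Serping1 was most like that of S100a6, Ifitm3 and Cp, with differences of 0.20, 0.27 and 0.34, where the median was 1.04. S100a6 is a calcium-binding protein, Ifitm3 an interferon-induced antiviral membrane protein and Cp the copper protein ceruloplasmin. The profiles of Cfi and Serping1 differed from each other by 0.66, and by 0.68 and 0.93 from that of Cd59a.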

How the data were processed

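Retinal RNA was measured on 9 Affymetrix arrays, 3 pools per group. The deposited values are log2 signals per probe set, and the submitters' processing notes name MAS5 and affy, without version or role. MAS5 subtracts mismatch signals, so low values scatter widely. After these were turned back to linear signals, the 2% trimmed mean was 500 on every array, as for values scaled to a common target. Detection calls were not used; with 3 arrays a group, array number sets the precision. Array medians were 6.77 to 7.03.

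Symbols came from the platform annotation: of 45101 probe sets, 64 were controls, 34945 had 1 symbol, 932 several and 9160 none. Coordinates and promoters are RefSeq's (GRCm38.p6); 34741 of the 34945 matched it by gene ID. Genes with a mean below 5.91 were left out, leaving 12765.

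All 9 arrays entered 1 limma fit with a mean for each group (limma 3.58.1 and the data.table package, version 1.17.8, in R 4.3.3; eBayes with an intensity trend; 6 residual degrees of freedom), which was checked on simulated data. Each comparison's p-values were Benjamini-Hochberg adjusted across its genes, and an adjusted p under 0.05 was a call. Group sums of markers are log2 of summed linear signals. Figures were drawn with matplotlib 3.10.9.

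All 9 members are named. Of the other complement lists, called genes are named, or the 2 of smallest p. For likeness, the 3 nearest genes by root mean square difference are given for each called member. The probe set of C4a and C4b and the genes Itgb2, Itgam, Itgax and C9 were singled out after their values were seen. The members and lists were chosen with earlier results of these data known. Alternatives were the filter, probe set choice, scaling, a floor, the variance prior, the arrays in the fit, array weights, a replicate block, 2 quality covariates and leaving out arrays; all probe sets without a filter, and control 3 and 2954K 3 left out together, were chosen after seeing the data.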

Additional observations from a re-analysis of the deposited data

How the results depend on the processing

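Cfi kept its direction against control in all 25 alternatives of both LED comparisons (log2 difference 1.24 to 1.69 under 7378K light and 1.43 to 1.75 under 2954K light), and its call in 23 and 24 of them. Serping1 kept its direction (1.32 to 2.64 and 1.28 to 2.33), but its 7378K call ended in 11 of 25, with adjusted p up to 0.6 with the dap covariate. The number of called members under 7378K light, 2, became 1 with the mean of all probe sets of a gene, with all single-symbol probe sets tested separately, without the intensity trend, with the 3′ minus 5′ covariate, without replicate 3 of every group and with all non-control probe sets unfiltered, and 0 with the dap covariate; it ranged from 1 to 2 when 1 array was left out. Under 2954K light the number was 1 without replicate 3 of every group too, but the called gene was Serping1 in place of Cfi; it became 2 with array weights and without control 3 and 2954K 3 together, and ranged from 1 to 2 when 1 array was left out. More probe sets tested, or fewer arrays, are part of some of these settings; the cause of the other changes was not tested. With the replicate number as a block the counts stayed at 2 and 1 (Serping1 adjusted p = 0.0157 under 7378K light and 0.0519 under 2954K light in limma), and no call of a member changed. The labels give the numbers no shared source. Deviations from the group means correlated at 0.06 to 0.33 between same-numbered arrays, above 0.1 in 5 of 9 pairs and in all pairs of number 3, and at -0.27 to 0.09 between differently numbered ones. As the deviations of a group sum to 0, positive values between same-numbered arrays bring negative ones between the others. Of the 9 arrays 7 correlated best with their own number in both other groups, a hint from the data and not from the design.

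Among tested genes, directions turned only in differences that passed in none of these settings. Cd59a in 7378K against control became -0.32 with the mean of its probe sets. In 7378K against 2954K, Cd59a became 0.018 with the 3′ minus 5′ covariate and 0.11 with the dap covariate, and ranged from -0.171 to 0.0944 when 1 array was left out (the highest without 2954K 2). Serping1 became -0.051 with array weights and -0.11 with the dap covariate. Cfi became 0.052 without replicate 3 of every group and 0.0507 without control 3 and 2954K 3, and ranged from -0.206 to 0.0507 when 1 array was left out, turning without 2954K 1, 2954K 3 or 7378K 2. Clu became -0.23 with the dap covariate and ranged from -0.0628 to 0.155 when 1 array was left out. The count over all genes, 449 under 7378K light and 156 under 2954K light, ranged from 71 to 2688 and from 68 to 895 over the alternatives, and from 0 to 29 in 7378K against 2954K. Clu kept its direction in all 25 under 7378K light. Of the 4 members below the filter, low signal limits what these arrays show. When 1 array was left out, C2 ranged from -0.63 to 0.77 under 7378K light and from -0.13 to 1.47 under 2954K light, Cfb from -0.39 to 1.71 and from -0.90 to 1.20 (C2 turned without control 2, Cfb without control 1), and Cd55 from -2.34 to -0.57 and from -1.21 to -0.80. With a floor on low values Cd55 was -0.75 under 7378K light and Cfb turned to -0.11 under 2954K light. With the mean of the probe sets C2 turned to -0.56 under 7378K light, and C3ar1 was 1.41 and 1.60.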

Other observations

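The receptor genes below the filter included Itgb2, the shared beta chain of the leukocyte integrins that serve as complement receptors 3 and 4. It measured 6.81, 6.77 and 6.48 (log2 signal) under 7378K light and 6.19, 7.01 and 6.57 under 2954K light, against 4.996, 3.63 and 3.70 in controls. All 6 LED arrays were above all controls, and in limma without the filter, over 18193 genes, it passed in both comparisons (adjusted p = 0.0229 under 7378K light and 0.0471 under 2954K light), where 1.42% and 0.671% of genes rose. Its alpha-chain partner Itgam measured 5.59, 2.47 and 2.10 under 7378K light and 5.36, 5.44 and 3.76 under 2954K light, against 3.94, 2.80 and 3.11 in controls, and Itgax 5.78, 5.55 and 5.79 and 2.95, 6.61 and 6.41, against 5.91, 6.25 and 6.13. Itgam overlapped between groups. For Itgax the 7378K arrays lay below all controls and the 2954K arrays on both sides, with log2 differences of -0.39 and -0.77. Neither passed (adjusted p = 0.862 and 0.777 in limma without the filter).

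In the terminal pathway, whose products form the membrane attack complex, C9 measured 5.71, 3.36 and 5.15 under 7378K light and 5.85, 5.65 and 3.17 under 2954K light, against 2.86, 2.45 and 3.01 in controls. Every LED array was above every control, but C9 was singled out after its values were seen, and all of them were under the filter. The unfiltered adjusted p in limma was 0.287 under 7378K light and 0.434 under 2954K light, so that neither passed.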
